A study of Mus musculus with 30 samples.

Results

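The genes described here mark monocytes and neutrophils, the bone marrow derived myeloid cells of the blood. The 10 genes chosen were Ccr2, Plac8 and Ly6c2 for monocytes and S100a8, S100a9, Ngp, Camp, Ltf, Lcn2 and Mpo for neutrophils, and a row was taken as a member when its gene symbol was 1 of these. Of the 14225 rows of the expression table, 9 were members, 1 for each gene other than S100a9, which had no row and was not analysed here. All 9 were above 0 in every library.

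RNA of CD11b+ cells, taken from the whole brain of C57BL/6J mice with magnetic beads, was measured in 30 libraries. Dams were injected in mid-gestation with poly(I:C), which mimics the RNA of a virus, for maternal immune activation (MIA), or with saline (Saline). Their offspring were sampled at E17, P7, P20 and P60, with 3 libraries for each of 10 groups. At P60, offspring had been fed control chow (CTRL), or chow with the CSF1R inhibitor PLX5622, which depletes microglia, followed by control chow so that microglia returned (MG-REP). Both kinds of offspring had a CTRL and an MG-REP group. A library held the pooled brains of 1 litter at E17, 3 pooled brains at P7, and 1 brain at P20 and P60, so age and pooling cannot be told apart from E17 to P7 or from P7 to P20. The labels gave no sex, litter or batch. CD11b is carried by microglia, monocytes and neutrophils alike, so the beads do not separate these cells.

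Monocytes leave the bone marrow and enter inflamed tissue through CCR2, the receptor for the chemokines CCL2, CCL7 and CCL12. Classical monocytes carry much of the surface protein Ly6C on their membrane. Neutrophils fill their granules in a fixed order as they mature. Primary granule proteins such as myeloperoxidase (Mpo) are transcribed in promyelocytes. The secondary granule proteins lactoferrin (Ltf), lipocalin 2 (Lcn2), cathelicidin (Camp) and neutrophilic granule protein (Ngp) follow in myelocytes and metamyelocytes, and the gelatinase and receptor genes of the mature cell come last. S100a8 encodes a subunit of calprotectin, the most abundant protein of the neutrophil cytosol. Microglia arise from the yolk sac and carry little of these transcripts at rest.

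The members were read from transcript levels in TPM, a unit scaled by transcript length and library size, so levels of different genes can be compared. The TPM of a library summed to 995490 to 998010. The spacing of low values pointed to 8.03 to 12.9 M reads per library on the deposited rows with a known transcript length. The paper states a higher minimum of reads per sample, so this estimate is not the full sequencing depth. At that depth the lowest values of Ly6c2 and Mpo were worth about 1.03 and 1.13 reads, while the median of S100a8 was worth about 593 reads. Microglial genes made up 91.0% to 99.3% of the summed cell type markers used to check purity, so the labelled cell type was present in each library.

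The promoters of the 5 neutrophil members that moved together most closely, and that of Ccr2, which moved apart from them, are given as the 250 bases before the annotated start (RefSeq, GRCm38.p6, 5′ to 3′). All 9 members matched a promoter. For Ccr2 the start used lay within the gene's span of chr9:124101918-124109140, so its window lay inside the gene. Capitals mark TTGCNNAA (reverse complement TTNNGCAA), letters bound by C/EBP factors, and GAGGAAGT (reverse complement ACTTCCTC), letters bound by PU.1. Both strands were searched for these motifs, which were chosen after the values were seen.
S100a8, chr3:90668821-90669070, + strand: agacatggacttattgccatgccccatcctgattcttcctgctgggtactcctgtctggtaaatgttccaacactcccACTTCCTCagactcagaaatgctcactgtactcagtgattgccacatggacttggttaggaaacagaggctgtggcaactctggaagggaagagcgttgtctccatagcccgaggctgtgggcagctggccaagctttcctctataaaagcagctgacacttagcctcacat
Ngp, chr9:110419558-110419807, + strand: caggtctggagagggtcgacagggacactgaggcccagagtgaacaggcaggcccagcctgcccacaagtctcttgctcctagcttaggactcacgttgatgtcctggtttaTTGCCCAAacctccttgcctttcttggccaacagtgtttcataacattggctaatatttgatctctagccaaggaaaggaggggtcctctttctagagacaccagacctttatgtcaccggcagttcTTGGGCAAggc
Camp, chr9:109849457-109849706, - strand: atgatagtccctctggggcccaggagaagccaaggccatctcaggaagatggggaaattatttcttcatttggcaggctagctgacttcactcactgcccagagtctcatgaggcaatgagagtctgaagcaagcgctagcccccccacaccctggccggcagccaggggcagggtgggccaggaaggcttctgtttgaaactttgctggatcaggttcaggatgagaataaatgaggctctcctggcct
Ltf, chr9:111019042-111019291, + strand: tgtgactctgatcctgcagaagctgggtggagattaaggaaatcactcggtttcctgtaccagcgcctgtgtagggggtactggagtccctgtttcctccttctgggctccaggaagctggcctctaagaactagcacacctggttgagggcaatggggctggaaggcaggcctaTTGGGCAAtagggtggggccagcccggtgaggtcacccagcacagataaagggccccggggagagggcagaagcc
Lcn2, chr2:32387740-32387989, - strand: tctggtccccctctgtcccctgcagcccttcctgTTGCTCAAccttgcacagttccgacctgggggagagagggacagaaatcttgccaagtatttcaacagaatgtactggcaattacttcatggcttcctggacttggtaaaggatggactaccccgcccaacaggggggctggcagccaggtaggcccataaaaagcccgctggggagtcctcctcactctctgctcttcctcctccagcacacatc
Ccr2, chr9:124101933-124102182, + strand: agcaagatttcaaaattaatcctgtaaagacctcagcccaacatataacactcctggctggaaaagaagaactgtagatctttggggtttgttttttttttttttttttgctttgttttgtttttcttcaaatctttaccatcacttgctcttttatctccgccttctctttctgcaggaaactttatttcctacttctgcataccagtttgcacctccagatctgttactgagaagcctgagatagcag

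The C/EBP letters lay at 138 and 11 bases before the start in Ngp, at 75 in Ltf and at 216 in Lcn2, counted from the first matched base. The PU.1 letters lay at 172 in S100a8. Camp and Ccr2 held neither motif in this window, and for Ccr2 the bases before the first base of the gene were not searched. Over the 9 members, 4 held the C/EBP letters in at least 1 listed promoter and 3 the PU.1 letters. Of all 32851 promoters of the same length, 9.56% and 2.44% held them. The counts are per gene, with any of its promoters, and the shares per promoter, so they are unlike measures. Plac8 counted only through its promoter at chr5:100563097-100563346, and that at chr5:100572206-100572455 held neither motif. Among the secondary granule genes, Camp lay at chr9:109847377-109849456, Ngp at chr9:110419808-110423012 and Ltf at chr9:111019292-111042766. Gaps of 0.570 Mb and 0.596 Mb separated these neighbours, while Lcn2 lay at chr2:32384637-32387739.

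The 9 members differed widely in level. S100a8 had the highest mean over the 30 libraries, 399 TPM, and stood at rank 324 of the 14225 rows. Ngp followed with 147 TPM, Camp with 68.2, Lcn2 with 67.6 and Ltf with 45.2 TPM. Plac8, which encodes a small cysteine-rich protein of myeloid and lymphoid cells, had a mean of 35.0 TPM, Ccr2 16.7 and Ly6c2 7.70 TPM. Mpo was lowest at 3.19 TPM. When the 10 groups were ordered by their median, the values of neighbouring groups overlapped in 9 of 9 steps for Ngp, Camp, Ltf, Ly6c2 and Mpo, in 8 of 9 for S100a8, Lcn2 and Plac8, and in 5 of 9 for Ccr2.

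**Figure D1:**
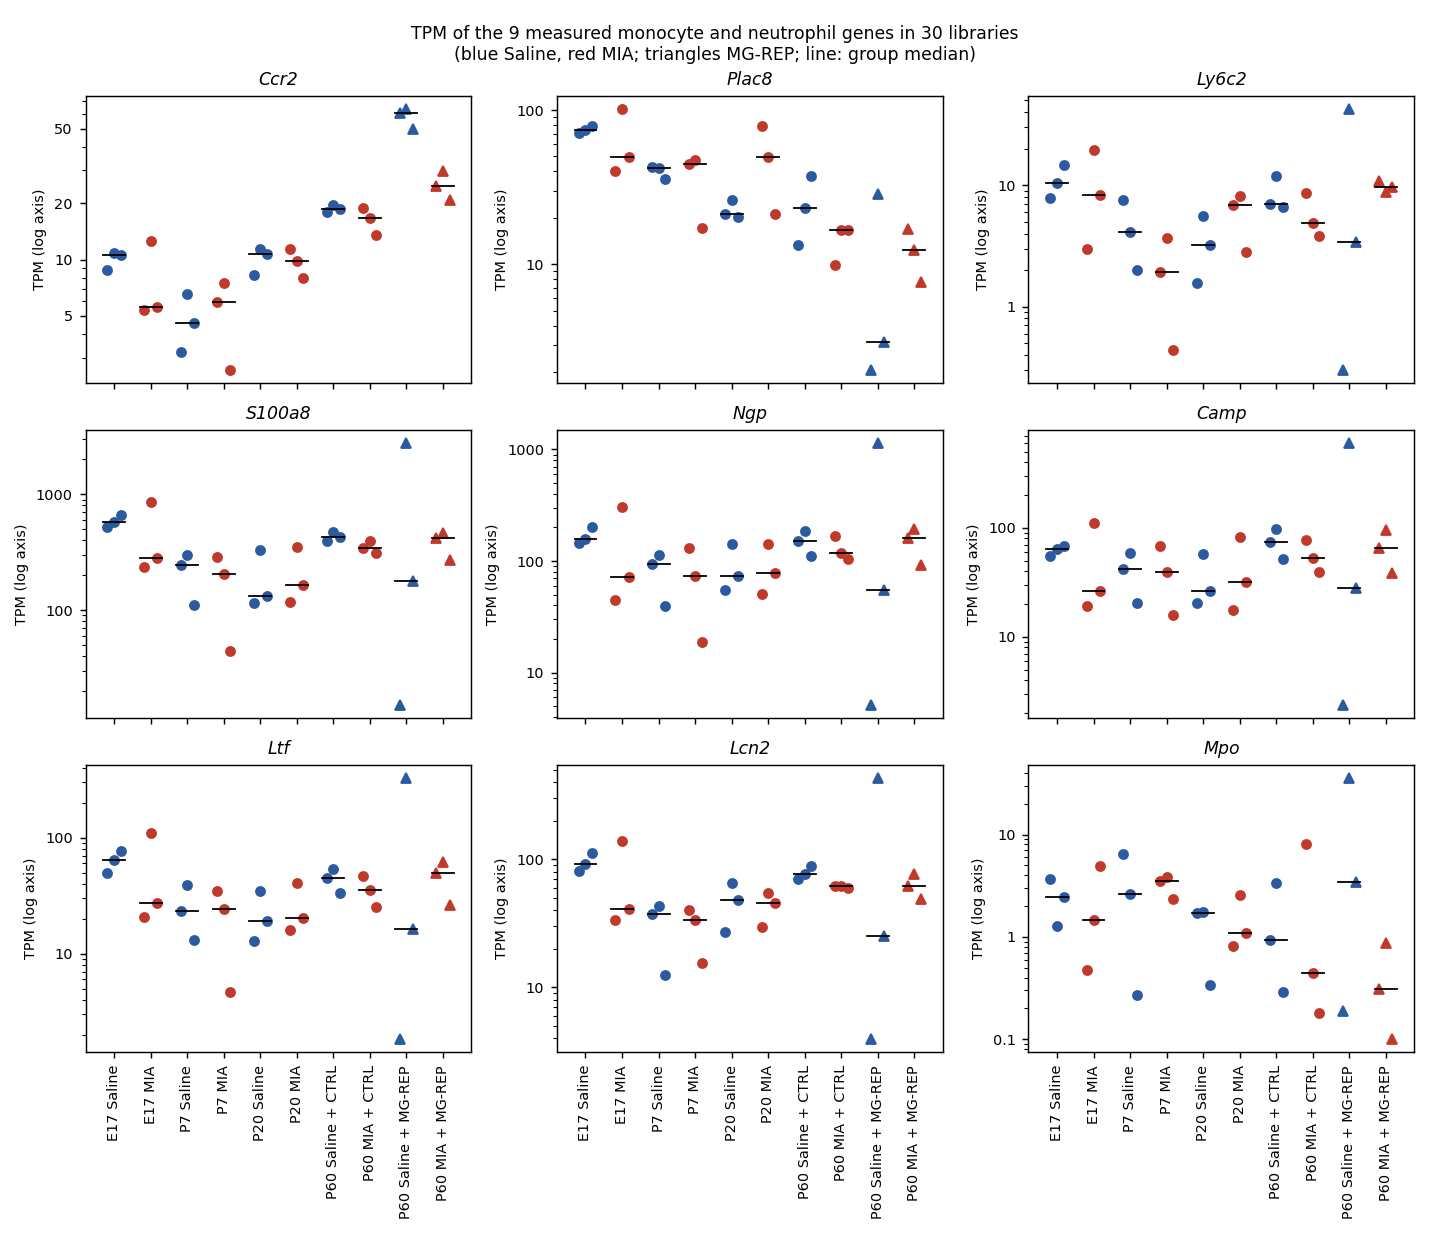
TPM of the 9 measured genes (vertical log axis) in the 3 libraries of each of 10 groups (horizontal axis), with Saline in blue, MIA in red, MG-REP as triangles and the group median as a line. Ccr2 is highest in the 3 Saline + MG-REP libraries (49.9 to 64.1 TPM), while the neutrophil genes of that group hold both the highest and the lowest S100a8, Ngp, Camp, Ltf and Lcn2 values of all 30 libraries.

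Ccr2, the chemokine receptor of monocytes (NM_009915, chr9:124101918-124109140), was the member with the tightest groups and the clearest change. In Saline + MG-REP offspring it was at 60.6, 64.1 and 49.9 TPM, and in Saline + CTRL offspring at 18.1, 19.6 and 18.7 TPM. The 3 Saline + MG-REP values lay above all of the other 27 libraries, of which the highest was 29.8 TPM. The group means were 58.2 ± 7.41 and 18.8 ± 0.776 TPM (SD, n = 3 libraries each). On the log2(TPM + 1) scale Ccr2 rose by 1.57 (SE 0.28, limma adjusted p = 0.000166), and it kept this call under each of the alternatives tried.

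In MIA offspring Ccr2 was at 24.7, 29.8 and 20.8 TPM in the MG-REP group and at 19.0, 16.7 and 13.6 TPM in the CTRL group. These groups did not overlap, but the log2 difference of 0.58 (SE 0.28) had a limma adjusted p of 0.816 and an unadjusted p of 0.0526. Between the MG-REP groups, Ccr2 was lower in MIA offspring by a log2 of -1.19 (SE 0.28, limma adjusted p = 0.00361). The MG-REP effect itself differed between MIA and Saline offspring by -0.99 (SE 0.40), with a limma adjusted p of 0.128 and an unadjusted p of 0.0214. With only the 12 P60 libraries in the fit that adjusted p was 0.0236.

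Across development Ccr2 fell and then rose. In E17 Saline offspring it was at 8.77, 10.9 and 10.6 TPM and in E17 MIA offspring at 5.39, 12.6 and 5.56 TPM. At P7 the values were 3.22, 6.58 and 4.56 TPM in Saline and 5.92, 7.51 and 2.57 TPM in MIA offspring. At P20 they were 8.24, 11.4 and 10.8 TPM in Saline and 11.5, 9.88 and 7.98 TPM in MIA offspring. The 6 libraries of P20 lay above the 6 of P7, and the 6 CTRL libraries of P60, from 13.6 to 19.6 TPM, lay above those of P20. With Saline and MIA averaged, Ccr2 fell by 0.73 from E17 to P7 (SE 0.20, limma adjusted p = 0.0200), rose by 0.91 from P7 to P20 (SE 0.20, limma adjusted p = 0.000583) and rose by 0.77 from P20 to P60 CTRL (SE 0.20, limma adjusted p = 0.0145).

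The 2 outer steps of this course were less stable than the middle one. The fall from E17 to P7 missed the threshold without E17 MIA library 2 (-0.55, adjusted p = 0.0596), without P7 Saline library 1 (-0.62, adjusted p = 0.0647), without P7 MIA library 3 (-0.54, adjusted p = 0.0611) and with only the groups compared in the fit (adjusted p = 0.146). The rise to P60 missed it after quantile normalization (0.74, adjusted p = 0.0528) and with the level of Xist, a transcript of female cells, as a covariate (0.93, adjusted p = 0.104).

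Plac8 (NM_139198, chr5:100551589-100572253) was highest at E17 and low after repopulation. It was at 71.0, 74.8 and 78.5 TPM in E17 Saline and at 40.1, 102 and 49.4 TPM in E17 MIA offspring. In Saline + CTRL offspring it was at 13.3, 23.3 and 37.4 TPM, and in Saline + MG-REP offspring at 2.06, 28.6 and 3.15 TPM. Library 2 of the latter group lay within the range of the controls, and libraries 1 and 3 were the 2 lowest values of Plac8 in the series. The log2 fold change was -1.72 (SE 0.59, limma adjusted p = 0.0339). This call was lost under median-ratio scaling (-1.62, adjusted p = 0.056), quantile normalization (-1.51, adjusted p = 0.0751), the Xist covariate (-1.19, adjusted p = 0.264) and with only the groups compared (adjusted p = 0.241). It was lost as well without Saline + CTRL library 2 (-1.70, adjusted p = 0.0754) or 3 (-1.37, adjusted p = 0.134), and without Saline + MG-REP library 1 (-1.10, adjusted p = 0.261) or 3 (-1.32, adjusted p = 0.145).

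In MIA offspring Plac8 was at 16.96, 12.3 and 7.67 TPM in the MG-REP group and at 9.92, 16.8 and 16.8 TPM in the CTRL group, and the groups overlapped (log2 -0.25, SE 0.59, limma adjusted p = 0.979). At P20 the MIA values of 78.7, 49.4 and 21.1 TPM reached above the Saline values of 21.2, 26.1 and 20.1 TPM, with overlap, and the difference of 0.93 (SE 0.59) had an unadjusted p of 0.129 by limma.

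Ly6c2 (NM_001099217, chr15:75108161-75112066), a gene of the Ly6C antigen, did not share the pattern of Ccr2. In Saline + MG-REP offspring it was at 0.30, 42.8 and 3.42 TPM, the lowest and the highest of the 30 libraries in 1 group, against 7.06, 12.02 and 6.67 TPM in Saline + CTRL offspring. In MIA + MG-REP offspring it was at 10.8, 8.87 and 9.69 TPM, above the 8.62, 4.85 and 3.79 TPM of MIA + CTRL offspring in each library, with a log2 difference of 0.74 (SE 0.79, limma adjusted p = 0.978). Its neighbour Ly6c1 is nearly identical in sequence, and the short reads may have been divided between them, so its level is uncertain.

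S100a8 (NM_013650, chr3:90669071-90670034) spanned 15.2 to 2754 TPM, and both ends lay in the Saline + MG-REP group. Its 3 values there were 15.2, 2754 and 177 TPM. In Saline + CTRL offspring it was at 395, 473 and 426 TPM, in MIA + CTRL offspring at 345, 394 and 311 TPM, and in MIA + MG-REP offspring at 416, 467 and 272 TPM. The 3 other P60 groups thus lay between the extremes of the Saline + MG-REP group, and each of their libraries was above libraries 1 and 3 and below library 2.

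Before P60, S100a8 was at 521, 573 and 657 TPM in E17 Saline and at 233, 853 and 282 TPM in E17 MIA offspring. At P7 it was at 244, 299 and 111 TPM in Saline and at 288, 204 and 44.3 TPM in MIA offspring. At P20 it was at 115, 331 and 133 TPM in Saline and at 118, 348 and 165 TPM in MIA offspring. Single libraries such as E17 MIA 2, P20 Saline 2 and P20 MIA 2 stood above their group.

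Ngp (NM_008694), a granule protein of the cystatin and cathelicidin superfamily, shared the order of S100a8 in the Saline + MG-REP libraries. In Saline + MG-REP offspring it was at 5.15, 1136 and 54.7 TPM, and in Saline + CTRL offspring at 150, 184 and 111 TPM. MIA + CTRL offspring had 169, 118 and 104 TPM and MIA + MG-REP offspring 162, 194 and 91.3 TPM. In MIA + CTRL offspring the order differed, since S100a8 was highest in library 2 and Ngp in library 1. In E17 MIA offspring Ngp was at 44.4, 302 and 71.8 TPM, and library 2 was highest for both genes.

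Camp (NM_009921), the precursor of the antimicrobial peptide CRAMP, was at 2.39, 596 and 28.3 TPM in Saline + MG-REP offspring and at 74.0, 96.9 and 51.5 TPM in Saline + CTRL offspring. Ltf (NM_008522), the iron-binding lactoferrin, was at 1.83, 328 and 16.5 TPM in the first and at 45.4, 54.0 and 33.5 TPM in the second of these groups. Lcn2 (NM_008491), which binds bacterial siderophores, was at 3.92, 434 and 25.3 TPM against 70.1, 76.4 and 88.9 TPM. For each of these 3 genes Saline + MG-REP library 2 was the highest and library 1 the lowest of the 30 libraries.

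The order of the 3 Saline + MG-REP libraries was thus shared by the neutrophil members. Library 2 exceeded library 1 by 181-fold in S100a8, 221-fold in Ngp, 249-fold in Camp, 179-fold in Ltf, 111-fold in Lcn2, 188-fold in Mpo and 143-fold in Ly6c2. Plac8 differed by 13.9-fold. Ccr2 differed between the same libraries by 1.06-fold. The 6 neutrophil members summed to 28.7, 5283 and 306 TPM in the 3 libraries, and to between 101.3 and 1518 TPM in the other 27. In bulk RNA, fewer cells of a type and less RNA per cell cannot be told apart.

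These libraries held an estimated 10.6, 9.34 and 9.39 M reads on the deposited rows with a known transcript length. The share of microglial markers was 98.9%, 97.8% and 97.3%. Of the other cell types, the 5 border macrophage rows summed to 1318, 685 and 687 TPM, the 7 NK and T cell rows to 26.3, 223 and 233 TPM, the 3 B cell rows to 0.66, 2.19 and 1.04 TPM, and the 4 platelet rows to 16.9, 20.2 and 17.8 TPM. Library 1 had 309 rows at 0, the most of the 30 libraries. The brain cell sums were lowest in library 1, at 28.9, 83.7 and 111 TPM for neurons, 364, 961 and 1190 TPM for astrocytes, 167, 392.3 and 514 TPM for oligodendrocytes, 267, 556 and 429 TPM for endothelial cells and 414, 1375 and 968 TPM for choroid plexus. In none of these sums did library 2 exceed both other libraries by the folds of the neutrophil members, and their part in the result was not tested.

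**Figure D2:**
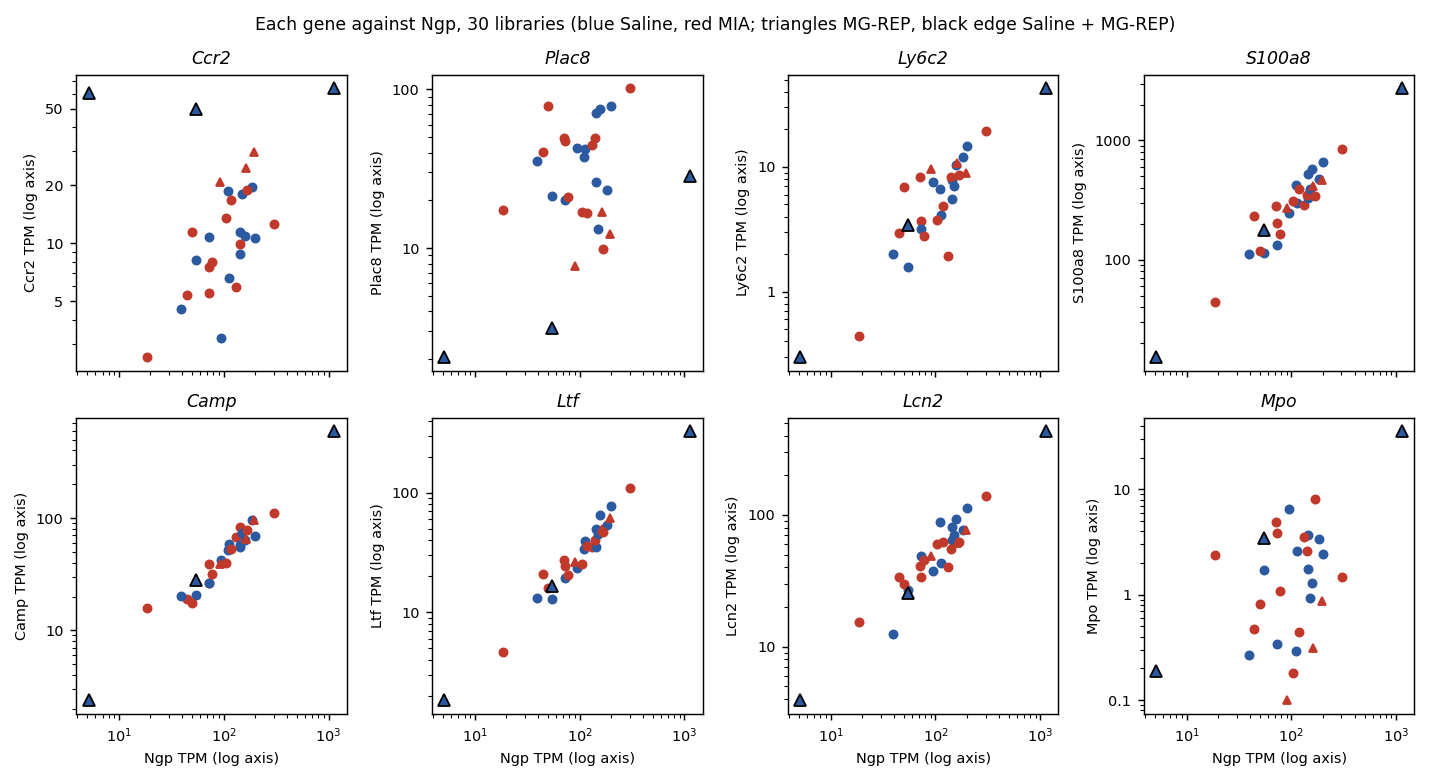
TPM of each of 8 genes (vertical log axis) against TPM of Ngp (horizontal log axis), 1 point per library, with Saline in blue, MIA in red, MG-REP as triangles and a black edge for Saline + MG-REP. S100a8, Camp, Ltf and Lcn2 lie along a line over the whole range of Ngp from 5.15 to 1136 TPM, while Ccr2, Plac8 and Mpo scatter.

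Within a library, 5 of the 6 neutrophil members, all but Mpo, kept similar proportions. Over all 30 libraries the ratio of Ngp to Camp lay between 1.17 and 2.91, that of S100a8 to Ngp between 1.83 and 5.25, that of Ngp to Ltf between 2.14 and 4.203 and that of Ngp to Lcn2 between 1.21 and 3.22. Each of these ratios thus spanned 1.96-fold to 2.87-fold, while the level of Ngp spanned 221-fold. The ratio of Ngp to Ccr2 spanned 344-fold, that to Mpo 116-fold, that to Plac8 62.5-fold and that to Ly6c2 9.32-fold. The lowest Mpo and Ly6c2 values were worth about 1.13 and 1.03 reads, so the spans of these ratios are uncertain. Across the 3 Saline + MG-REP libraries, Ngp to Ltf stayed within 2.81 to 3.47 and Ngp to Camp within 1.91 to 2.16. In the same libraries Ngp to Mpo lay within 15.9 to 31.8 and Ngp to Ly6c2 within 16.0 to 26.5.

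Mpo (NM_010824, chr11:87793784-87804412), the primary granule peroxidase, was low in nearly all libraries. It was between 0.10 and 8.13 TPM in 29 libraries and at 35.7 TPM in Saline + MG-REP library 2. The other 2 libraries of that group were at 0.19 and 3.44 TPM, and those of Saline + CTRL offspring at 0.94, 3.35 and 0.29 TPM. In MIA + CTRL offspring the values were 8.13, 0.44 and 0.18 TPM and in MIA + MG-REP offspring 0.31, 0.87 and 0.10 TPM. Other genes of the promyelocyte behaved alike in these libraries, chosen here after their values were seen. Elane, neutrophil elastase, was at 36.7 TPM in Saline + MG-REP library 2 against 10.7 TPM or less in the other 29, and Prtn3, proteinase 3, was at 30.6 TPM there. Of the 6 further primary granule and progenitor genes with a row, 5 were highest of the 30 libraries in this library.

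Between Saline + MG-REP and Saline + CTRL offspring, 2 of the 9 members passed the test, Ccr2 higher and Plac8 lower. Over all 14225 rows, 11.9% were higher and 14.9% lower, or 26.7% in either direction, so the members were called about as often as other genes. The median log2 fold change was -0.90 for the members and -0.14 for all rows. S100a8 had a log2 fold change of -1.11 (SE 1.03, limma adjusted p = 0.482), Ngp -1.003 (SE 1.08, limma adjusted p = 0.551) and Lcn2 -1.04 (SE 0.89, limma adjusted p = 0.438). Mpo was at 1.39 (SE 0.88, limma adjusted p = 0.271). Only Ccr2 had groups that did not overlap, beside 38.4% of all rows.

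The count moved most with library 2, and the signs of several members with library 1. Without library 2, 8 of 9 members passed, with 7 lower and Ccr2 higher, when 26.2% of all rows passed. S100a8 was then at -3.00 (adjusted p = 0.00571), Ngp at -2.98 (adjusted p = 0.00809), Camp at -2.87 (adjusted p = 0.00897), Ltf at -2.66 (adjusted p = 0.0109), Lcn2 at -2.80 (adjusted p = 0.00123), Ly6c2 at -1.96 (adjusted p = 0.0224) and Plac8 at -2.73 (adjusted p = 0.000157). Without library 1, the sign turned for S100a8 (0.70), Ngp (0.78), Camp (0.86), Ltf (0.77), Lcn2 (0.44) and Ly6c2 (0.58), none of which passed, and the count was again 2, beside 17.3% of all rows, with Ccr2 and with Mpo at 2.53 (adjusted p = 0.0410). The count was 1, Ccr2, without library 3 or without Saline + CTRL library 2 or 3. Ccr2 was at 1.68 or less, and called, with any single library left out.

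**Figure D3:**
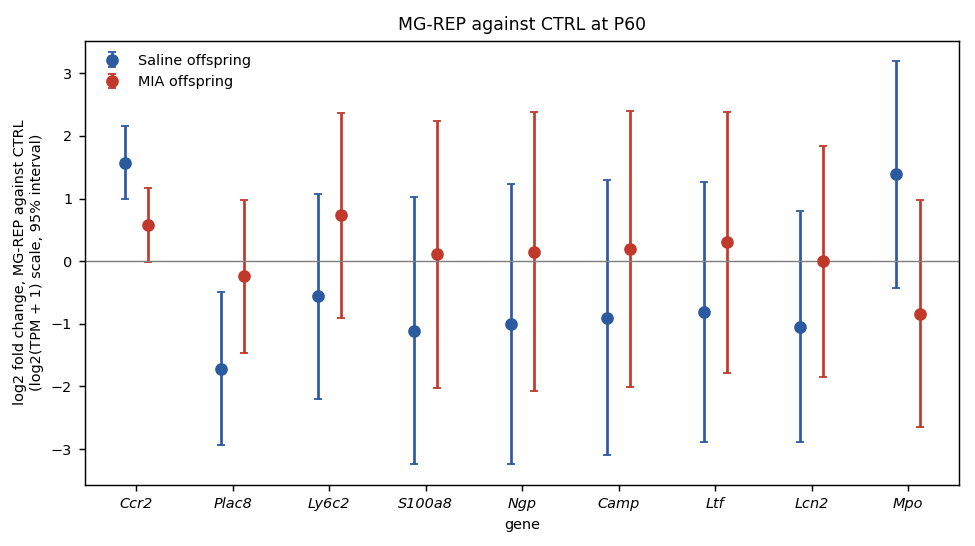
Difference of MG-REP against CTRL on the log2(TPM + 1) scale (vertical axis) for each of the 9 genes (horizontal axis), with Saline offspring in blue and MIA offspring in red; points are estimates of the limma fit and bars their 95% intervals, n = 3 libraries per group. The intervals of Ccr2 and Plac8 in Saline offspring leave out 0, and the intervals of S100a8, Ngp and Camp include 0 in both kinds of offspring.

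Between MIA + MG-REP and MIA + CTRL offspring none of the 9 members passed limma's test at an adjusted p under 0.05, and none did at an unadjusted p under 0.05. Over all rows 0.555% passed, 0.387% higher and 0.169% lower. The median log2 fold change of the members was 0.15, and that of all rows -0.08. S100a8 differed by 0.11 (SE 1.03, 95% interval -2.03 to 2.24) and Ltf by 0.30 (SE 1.01, 95% interval -1.78 to 2.38). These intervals rest on a spread estimated over all 10 groups, which takes in the Saline + MG-REP libraries. Ccr2 and Ly6c2 had groups that did not overlap, beside 17.8% of all rows.

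When the MG-REP groups of MIA and Saline offspring were compared, 1 of 9 members passed, the lower Ccr2 given above. Of all rows 10.9% were higher and 11% lower, or 22% in either direction. Ccr2 was the 1 member whose groups did not overlap, beside 42.7% of all rows. Without Saline + MG-REP library 2, 8 of 9 passed, with Ccr2 lower and S100a8 (2.80, adjusted p = 0.0115), Lcn2 (2.46, adjusted p = 0.00471) and 5 others higher, beside 22.1% of all rows. Without library 1, 2 passed, beside 12.2% of all rows. The MG-REP effect differed between MIA and Saline offspring in 0 of 9 members, with 1 at an unadjusted p under 0.05, while 4.42% of all rows passed as higher and 6.09% as lower, or 10.5% in all. Without Saline + MG-REP library 2, 3 passed, beside 11.5% of all rows, which were Plac8 (2.49, adjusted p = 0.0132), Ly6c2 (2.69, adjusted p = 0.0375) and Lcn2 (2.80, adjusted p = 0.0251). These comparisons share the Saline + MG-REP libraries.

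No member was called between MIA and Saline offspring. At E17, P7, P20 and in the CTRL groups of P60, 0 of 9 members passed, and 0 had an unadjusted p under 0.05 in limma. Of all rows 0% passed at each age, with 585, 335, 457 and 256 rows at an unadjusted p under 0.05. At E17 each of the 9 members was lower in MIA offspring, with a median log2 difference of -0.60 beside 0.10 for all rows, but E17 MIA library 2 was above all 3 Saline libraries for Ccr2, Plac8, Ly6c2, S100a8, Ngp, Camp, Ltf and Lcn2. The largest E17 difference was in Ngp, -0.74 (SE 1.08, 95% interval -2.97 to 1.49). At P60, S100a8 and Lcn2 were lower in each MIA + CTRL library than in each Saline + CTRL library, by a log2 of -0.30 (SE 1.03) and -0.34 (SE 0.89), and 5.93% of all rows had groups that did not overlap. Each SE here also rests on the spread over all 10 groups, the Saline + MG-REP libraries among them. At E17, P7 and P20 the groups overlapped in each of the 9 members, while 6.05%, 4.12% and 9.69% of all rows had groups that did not. In this design 3 libraries against 3 cannot give an exact permutation p below 0.1.

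Between ages, Ccr2 was the single member called at each step, lower from E17 to P7 and higher at the following steps. From E17 to P7, 4.03% of all rows were lower and 6.76% higher, or 10.8% in all. From P7 to P20, 21.6% were higher and 29.1% lower, or 50.7% in all, and from P20 to P60 CTRL, 4.24% were higher and 7.71% lower, or 12% in all. The ages did not overlap in 0 members from E17 to P7 and in Ccr2 alone at the later steps, beside 5.71%, 29.2% and 6.88% of all rows. The members' unadjusted p was under 0.05 from E17 to P7 in 3 genes, Ccr2, Ly6c2 (-1.48, SE 0.56, limma adjusted p = 0.0961) and Lcn2 (-1.39, SE 0.63, limma adjusted p = 0.171). S100a8 differed by -1.50 (SE 0.73, limma adjusted p = 0.208). The summed neutrophil members had a median of 904 TPM at E17, 413 at P7, 321 at P20 and 710 TPM in the CTRL groups of P60, over 6 libraries each, with overlap between neighbouring ages.

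Of the 28 rows of further mature neutrophil genes, 12 were lower, 3 higher and 13 not called from E17 to P7, beside 4.03% lower and 6.76% higher of all rows. Mmp8, the collagenase of mature neutrophils, was at 14.5 to 42.8 TPM at E17 and at 0.14 to 8.95 TPM at P7, and fell by a log2 of 2.60 (SE 0.56, limma adjusted p = 0.00328). Mmp9, gelatinase B, fell by 1.68 (SE 0.40, limma adjusted p = 0.00658), and Cxcr2, named after its values were seen, the receptor that draws neutrophils to CXCL1 and CXCL2, by 1.60 (SE 0.38, limma adjusted p = 0.00733). None of these 3 genes overlapped between E17 and P7. Of the 12 further secondary granule rows, 0 were higher, 1 was lower and 11 were not called. The lower row was Olfm4, olfactomedin 4 of a subset of neutrophils, which fell by 2.23 (SE 0.35, limma adjusted p = 0.000166). Of the erythroid rows 4 of 4 were lower at P7 as well, with a sum of 18.9 to 50.0 TPM at E17 and 0.80 to 3.79 TPM at P7, and their part in this was not tested.

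The stefin A genes, which encode inhibitors of cysteine proteases and are nearly identical in sequence, fell at both of the first 2 steps. From E17 to P7 the log2 change was -1.88 in Stfa3 (SE 0.54, limma adjusted p = 0.0260) and -1.74 in Stfa2 (SE 0.46, limma adjusted p = 0.0157). Stfa1 was at 96.5 to 402 TPM at E17, at 15.3 to 157 TPM at P7 and at 4.17 TPM or less at P20. It fell by 4.92 from P7 to P20 (SE 0.44, limma adjusted p = 3.07e-09). Over the same step the log2 change was -4.25 in Stfa3 (SE 0.54, limma adjusted p = 7.3e-07), -3.97 in BC100530 (SE 0.47, limma adjusted p = 2.25e-07) and -3.88 in Stfa2 (SE 0.46, limma adjusted p = 2.55e-07). Over the mature neutrophil list 9 of 28 rows were lower and 5 higher from P7 to P20, beside 29.1% and 21.6% of all rows. Short reads may be split among these copies, so the single genes are uncertain.

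These genes were also set against Ngp in the same library. The ratio of Mmp8 to Ngp was 0.142 to 0.327 at E17 and 0.00752 to 0.0798 at P7, without overlap. It was 0.0448 to 0.0810 at P20, 0.0381 to 0.130 in the CTRL groups of P60 and 0.0604 to 0.247 in the MG-REP groups. Only Saline + MG-REP library 1 among them reached into the range of E17, from low values of 1.27 TPM for Mmp8 and 5.15 TPM for Ngp. That of Stfa2l1 to Ngp was 0.475 to 0.753 at E17, 0.0919 to 0.499 at P7 and at most 0.0475 at P20 and P60. The ratio of Cxcr2 to Ngp was 0.0948 to 0.337 at E17, 0.0484 to 0.338 at P7, overlapping E17, and at most 0.0913 at P20 and P60. That of Mmp9 to Ngp also overlapped, at 0.3406 to 3.982 at E17 and 0.2959 to 1.025 at P7. From E17 to P7 the median Mmp9 ratio went from 0.4207 to 0.5359 in Saline and from 2.595 to 0.5073 in MIA offspring. At P20 the Mmp9 ratio was 0.0795 to 0.1251. Retnlg, a resistin-like gene of neutrophils, was at 0.3766 to 0.769 of Ngp at E17, 0.125 to 0.401 at P7 and 0.189 to 0.3755 at P20. At P60 it was at 0.268 to 0.787 in the CTRL groups and 0.348 to 0.992 in the MG-REP groups. The genes set against Ngp were chosen after their values were seen, and the ratios are a description over 6 libraries per age, with 18 at P20 and P60 together.

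**Figure D4:**
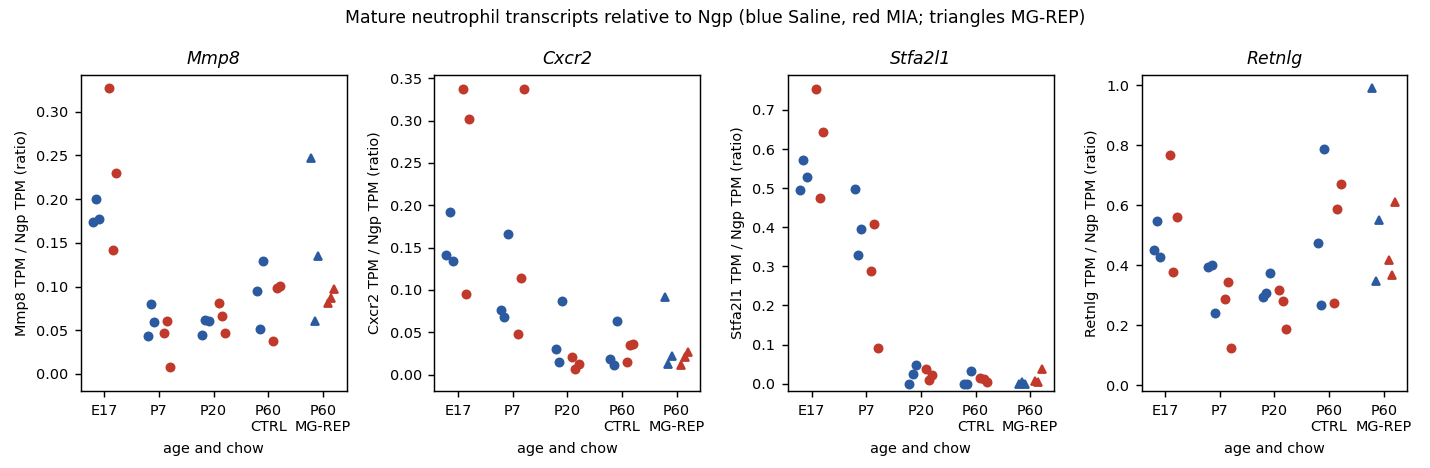
Ratio of the TPM of Mmp8, Cxcr2, Stfa2l1 and Retnlg to that of Ngp (vertical axes) in each library by age and chow (horizontal axis), with Saline in blue, MIA in red and MG-REP as triangles. Mmp8 to Ngp lies between 0.142 and 0.327 at E17 and at 0.0798 or below at P7, and Stfa2l1 to Ngp is at 0.0475 or below at P20 and P60.

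Of the 27 further monocyte rows, 12 were higher and 1 lower in Saline + MG-REP than in Saline + CTRL offspring, beside 11.9% and 14.9% of all rows. Ms4a4c, of the membrane-spanning 4A family, was at 70.2, 64.9 and 85.8 TPM against 5.53, 3.83 and 5.08 TPM (log2 3.68, SE 0.34, limma adjusted p = 1.18e-08). Ccr1, a chemokine receptor of monocytes and neutrophils, was at 396, 224 and 224 TPM against 34.8, 23.3 and 17.3 TPM (log2 3.43, SE 0.31, limma adjusted p = 7.32e-09). Itga4, the integrin subunit that binds VCAM1, rose by 2.57 (SE 0.21, limma adjusted p = 1.96e-09), and Spn, the sialoglycoprotein CD43, by 1.83 (SE 0.32, limma adjusted p = 0.0001). In these 4 genes no value of library 2 exceeded that of library 1 by the folds of the neutrophil members, the ratio of library 2 to 1 being 0.925, 0.565, 0.731 and 0.602. The list also held genes at the level of microglial ones, such as Cd14 at 2521, 1826 and 1976 TPM beside Cx3cr1 at 1539, 1614 and 1580 TPM. Which cells carried these rows was not tested, so the calls cannot be assigned to monocytes.

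Other monocyte genes went with the neutrophil members. Chil3, the chitinase-like protein Ym1 of monocytes and neutrophils, was at 0.47, 146 and 9.78 TPM in the 3 Saline + MG-REP libraries, and Ifitm6 at 4.42, 109 and 11.1 TPM. They were named for this order, and F13a1 for its level, after their values were seen. F13a1, coagulation factor XIII A of monocytes, was at 2.47, 2.04 and 1.48 TPM there and at 2.51 TPM or less in Saline + CTRL offspring. Ligands of Ccr2 also rose. Ccl2 was at 1385, 940 and 771 TPM against 269, 222 and 186 TPM (log2 2.16, SE 0.29, limma adjusted p = 4.15e-06), and Ccl12 rose by 1.78 (SE 0.39, limma adjusted p = 0.00115). Cxcl1, a ligand of Cxcr2, rose by 3.65 (SE 0.34, limma adjusted p = 1.26e-08). Of the 19 rows of ligands, growth factors and their receptors, 6 were higher and 3 lower, beside 11.9% and 14.9% of all rows.

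Of the mature neutrophil rows, 9 of 28 were higher and 0 lower in Saline + MG-REP than in Saline + CTRL offspring, beside 11.9% and 14.9% of all rows. They were led by Cxcl2 (log2 3.54, SE 0.33, limma adjusted p = 1.23e-08), a neutrophil chemoattractant, Trem1 (3.01, SE 0.50, limma adjusted p = 5.89e-05), a receptor that amplifies inflammation, Il1b (3.01, SE 0.32, limma adjusted p = 1.32e-07) and Clec4e (1.95, SE 0.44, limma adjusted p = 0.00162), the receptor Mincle. Microglia and macrophages also express these genes. Il1b was at 2228, 2160 and 1744 TPM in the 3 libraries, so it did not share the order of the neutrophil members. Retnlg was at 5.11, 395 and 30.2 TPM and Mmp8 at 1.27, 68.6 and 7.36 TPM, which did, and both were named for it after their values were seen. In 15 of the 28 mature rows, and in 6 of 6 primary granule rows and 7 of 12 secondary granule rows, library 1 was lowest and library 2 highest of the 3. The same order held in 8 of 10 immediate early, 6 of 8 endothelial, 4 of 5 choroid plexus and 5 of 8 microglial rows. Library 2 was the highest of all 30 libraries in 13 of the 28 mature rows and in none of these 4 other lists.

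The counts of these lists moved with library 2, while 26.7% of all rows passed with it and 26.2% without it. Without it, 8 mature neutrophil rows were higher and 6 lower, 3 secondary granule rows were higher and 5 lower, and 2 of 6 primary granule rows were lower, while with it 3 secondary granule rows were higher and 0 lower and 0 primary granule rows passed. The 3 secondary granule rows that rose were Cybb, Lyz2 and Cyba, subunits of NADPH oxidase and lysozyme, which microglia carry too. The monocyte list had 11 rows higher and 2 lower without library 2. With all libraries in the fit, 7 of 8 microglial rows were lower in Saline + MG-REP than in Saline + CTRL offspring, beside 14.9% of all rows. They were led by Sall1 (-2.48, SE 0.29, limma adjusted p = 5.96e-07) and P2ry12 (-2.28, SE 0.24, limma adjusted p = 7.22e-08).

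In MIA offspring, 1 of the 27 monocyte rows was higher after repopulation, beside 0.387% of all rows. This was Ms4a4c, at 16.4, 13.5 and 16.1 TPM against 4.01, 4.84 and 5.97 TPM (log2 1.47, SE 0.34, limma adjusted p = 0.0453). No row of the 3 further neutrophil lists or of the ligand list passed. The MG-REP effect was smaller in MIA than in Saline offspring by the test of the difference for Ms4a4c (-2.22, SE 0.48, limma adjusted p = 0.0032), Ccr1 (-2.79, SE 0.43, limma adjusted p = 0.000112), Itga4 (-2.41, SE 0.30, limma adjusted p = 6.28e-06), Trem1 (-3.39, SE 0.71, limma adjusted p = 0.00231) and Cxcl2 (-3.36, SE 0.46, limma adjusted p = 2.62e-05). Between MIA and Saline, no row of these lists passed at E17, P7, P20 or in the CTRL groups of P60, where 0% of all rows did.

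The genes whose levels were most like the neutrophil members, over the mean z-score of the 6 and all 30 libraries, were Cd177 (Pearson r = 0.958), Itgb2l (0.921), Hp (0.899), Retnlg (0.885) and Wfdc21 (0.865), each a transcript of the neutrophil lineage. For the 3 monocyte members they were Ifitm6 (0.883), Mmp8 (0.877), Hp (0.857), Retnlg (0.854) and Wfdc21 (0.839). Over the 30 libraries Ccr2 correlated at -0.585 with Plac8 and at 0.327 with Ly6c2, and Plac8 at 0.382 with Ly6c2. The monocyte profile is thus not a pattern that the 3 genes share. These values are descriptions of 30 libraries in 10 groups and carry no test, and the libraries share the spread of Saline + MG-REP library 2. Of the 9 members, 8 belonged to the module REP-AM, which the authors made by clustering these same libraries and which held 7.97% of all rows, and Plac8 to the module IM.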

How the data were processed

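RNA from CD11b+ cells of 30 mouse samples was measured by non-stranded poly(A) sequencing with 40-base single-end reads. The authors used Rsubread for alignment (mm10) and featureCounts for gene counts, kept genes with at least 2 CPM in at least 3 libraries, and deposited TPM values with the module of each gene. Raw counts were not used here. The spacing of low TPM values gave the reads of a library on rows with a known transcript length. At that spacing 70.8% to 79.4% of values lay within 0.2 of a whole read. The best of many spacings was kept, and 40% would fall there by chance for a spacing fixed beforehand.

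Groups were taken from the sample labels. At P20 the deviations of same-numbered Saline and MIA libraries correlated at 0.238, 0.104 and 0.132. The labels do not say what these numbers stand for, so the main fit was unpaired and a fit blocked on them was an alternative. Both fits called the same number of members, but at P20 no row of the table passed in either. Values were tested as log2(TPM + 1) with no filter, using limma 3.58.1 in R 4.3.3, with 10 group means, moderation with a trend and Benjamini-Hochberg adjustment over all 14225 rows, and 0.05 as the threshold. Fold changes on this scale understate those of low genes. The fit was tested on simulated data. The labels name no litter, so p-values measure the spread between these samples, which may be in part technical. The members and gene lists were chosen with earlier results of these data known. Up to 4 called genes per list, those with the largest log2 change, were named for a comparison, and the text says which others were chosen after their values were seen. Alternatives were quantile normalization, a pseudocount of 0.1, median-ratio scaling, a replicate block, a filter at a mean TPM of 1, moderation without a trend, an Xist covariate, only the groups compared, and leaving out each library. Python 3.11.15, pandas 2.3.3 and matplotlib 3.10.9 were used for tables and plots.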

Additional observations from a re-analysis of the deposited data

Results flagged for a closer look

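For 5 members, the 3 MIA libraries of one comparison all lay above the mean of their Saline group and those of another comparison all lay below it, on the log2(TPM + 1) scale. MIA minus Saline was -0.65 in the CTRL groups and 0.82 in the MG-REP groups for Plac8, -0.30 and 0.91 for S100a8, and -0.34 and 0.71 for Lcn2. The difference of these effects was 1.47 for Plac8 (limma adjusted p = 0.323), 1.22 for S100a8 (limma adjusted p = 0.743) and 1.05 for Lcn2 (limma adjusted p = 0.745), none past the threshold. For Ly6c2 MIA minus Saline was -0.91 at P7 and 0.77 in the MG-REP groups, and for Mpo it was 0.37 at P7 and -2.06 in the MG-REP groups. The differences between P7 and the MG-REP groups were not tested. No single MIA against Saline value given here passed limma's test, with Mpo in the MG-REP groups at an adjusted p of 0.0974. Each MG-REP value rests on Saline + MG-REP libraries that differed by 13.9-fold in Plac8 to 188-fold in Mpo.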

How the results depend on the processing

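Of 426 values under alternatives, 377 kept their direction and side of the threshold. Of the 9 members, the count called for MG-REP in Saline offspring was 2, and 1 under median-ratio scaling, quantile normalization, the Xist covariate and with only the groups compared. The difference of the MG-REP effect went from 0 to 1 with only the groups compared, P7 against E17 from 1 to 0 with only the groups compared, and P60 CTRL against P20 from 1 to 0 after quantile normalization or with the Xist covariate and to 2 with only the groups compared. Without Saline + MG-REP libraries 1 and 2, an alternative chosen after seeing the data in which the lone library is assumed to vary like the other groups, 0 members were called between the MG-REP groups. The causes were not tested.

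Leaving out 1 library at a time gave 1 to 8 called members between the MG-REP groups, 1 to 8 for MG-REP in Saline offspring, 0 to 3 for the difference and 0 to 1 for P7 against E17. The 8 and the 3 came without Saline + MG-REP library 2. In Saline offspring the log2 change ranged from -1.96 to 0.58 for Ly6c2, -3.00 to 0.70 for S100a8, -2.98 to 0.78 for Ngp, -2.87 to 0.86 for Camp, -2.66 to 0.77 for Ltf and -2.80 to 0.44 for Lcn2, with the reversed sign without library 1.

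Over all ages 12 of 27 correlations between same-numbered libraries were over 0.1 (-0.53 to 0.66), and P20 was the only comparison of 2 groups in which all 3 pairs were. With the replicate block 2 members were called for MG-REP in Saline offspring, and the count of members was the same in each comparison. The intervals of the neutrophil members stayed wide, with 3 libraries per group and a single spread per gene estimated over all 10 groups. That spread took in the Saline + MG-REP libraries. S100a8 thus had an SE of 1.03 in each comparison of 2 groups, also in those without these libraries. Ly6c2 and Mpo were worth few reads at their lowest.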

Other observations

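Markers of other cells did not move together in Saline + MG-REP offspring. Of 4 platelet rows, Gp9, a subunit of the von Willebrand factor receptor, fell by 3.04 on the log2 scale (limma adjusted p = 9.63e-08) and Ppbp, a platelet chemokine, rose by 1.78 (limma adjusted p = 0.00114). The summed platelet level of 16.9 to 20.2 TPM against 77.6 to 89.3 TPM in Saline + CTRL offspring was mostly Gp9. Of 5 border macrophage rows, Pf4 rose by 1.97 (limma adjusted p = 0.0001), at 901, 422 and 408 TPM against 156, 133 and 122 TPM, and Cd163 fell by 0.58 (limma adjusted p = 0.0086), with values under 1 TPM in both groups. Gzma, granzyme A of NK and T cells, fell by 1.80 (limma adjusted p = 0.0107), while Ccl5, a chemokine of T cells and macrophages, rose by 2.25 (limma adjusted p = 0.0189) from values that differed between the 3 MG-REP libraries, at 16.7, 208 and 226 TPM.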
